A study of Mus musculus with 8 samples.

Results

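The globin genes encode the protein chains of hemoglobin, and their probe sets were taken from the whole array by symbol. A probe set, the group of oligonucleotides that reports a transcript on an Affymetrix array, was a member where every gene symbol annotated to it began with Hba- (alpha-like chains) or Hbb- (beta-like chains). The rule found 15 of 45101 probe sets, which carry 9 symbols. Of these probe sets, 11 name 1 gene and 4 name several near-identical genes, whose signals cannot be separated. A single annotated symbol does not establish that a probe set reports that gene alone. The embryonic genes Hbb-y, Hbb-bh1 and Hba-x have 7 probe sets, and the adult genes Hba-a1, Hba-a2, Hbb-bs, Hbb-bt, Hbb-b1 and Hbb-b2 have 8.

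Expression was measured in unsorted cell suspensions from 2 blood-forming tissues of C57B6/J mice, with 2 arrays in each of 4 groups. The groups were Col18a1-/- (knockout, KO) fetal liver and Col18a1+/+ (wild-type, WT) fetal liver at embryonic day 14.5, and KO and WT bone marrow flushed from the femur and tibia of 3-month-old males. Col18a1 encodes the alpha chain of collagen XVIII, a basement membrane proteoglycan, and the labels name no Cre or cell type that would restrict its loss. Each array held RNA pooled from 2 mice, the sex of the embryos was undetermined, and the submitters call the WT animals littermates in one place and describe separate KO and WT lines in another. The p-values therefore measure the spread between pools only.

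In the mouse, the first red cells arise in the yolk sac and circulate as large nucleated primitive erythroblasts that make the embryonic globins. As these cells mature they switch from Hbb-bh1 to Hbb-y and from Hba-x to the adult alpha genes. The fetal liver, and later the bone marrow, produce definitive red cells that make mostly adult globins. The beta-like genes lie together on chromosome 7 and the alpha-like genes on chromosome 11, each under a distant shared enhancer region, and repressors such as the product of Bcl11a silence the embryonic genes in definitive cells.

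The promoters of an embryonic and an adult gene of each cluster are shown because the tissue difference runs between them. Each window runs from 250 bases before the start of the gene to 50 bases after it, 5′ to 3′ on the strand of the gene, from RefSeq on GRCm38.p6. Capitals mark every match, on either strand, to 5 motifs. These are CACCC (bound by Klf1 and its relatives), the CCAAT box, the GATA factor site GATAA, the start-site motif TATAA and the nuclear receptor site GGTCA (bound by products such as those of Nr2c1 and Nr2c2). The windows are chr7:103853158-103853457 (minus strand) for Hbb-y, chr11:32276350-32276649 (plus strand) for Hba-x, chr7:103827879-103828178 (minus strand) for Hbb-bs and chr11:32283422-32283721 (plus strand) for Hba-a1.
Hbb-y: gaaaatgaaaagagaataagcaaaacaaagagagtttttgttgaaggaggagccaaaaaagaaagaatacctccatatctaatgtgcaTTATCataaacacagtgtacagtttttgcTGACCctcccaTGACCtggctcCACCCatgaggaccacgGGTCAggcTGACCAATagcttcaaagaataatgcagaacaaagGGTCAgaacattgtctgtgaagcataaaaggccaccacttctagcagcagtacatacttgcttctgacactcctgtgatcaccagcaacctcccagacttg
Hba-x: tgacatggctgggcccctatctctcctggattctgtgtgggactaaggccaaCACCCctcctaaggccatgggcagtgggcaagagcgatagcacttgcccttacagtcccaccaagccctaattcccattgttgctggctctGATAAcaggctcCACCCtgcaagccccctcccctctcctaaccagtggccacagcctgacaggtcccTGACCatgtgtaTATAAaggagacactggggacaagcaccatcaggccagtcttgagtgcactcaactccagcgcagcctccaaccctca
Hbb-bs: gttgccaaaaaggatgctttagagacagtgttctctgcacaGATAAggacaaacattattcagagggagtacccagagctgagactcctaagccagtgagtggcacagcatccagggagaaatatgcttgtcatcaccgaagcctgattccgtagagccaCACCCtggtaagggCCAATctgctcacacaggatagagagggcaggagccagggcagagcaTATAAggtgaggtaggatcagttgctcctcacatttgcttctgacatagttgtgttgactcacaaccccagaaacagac
Hba-a1: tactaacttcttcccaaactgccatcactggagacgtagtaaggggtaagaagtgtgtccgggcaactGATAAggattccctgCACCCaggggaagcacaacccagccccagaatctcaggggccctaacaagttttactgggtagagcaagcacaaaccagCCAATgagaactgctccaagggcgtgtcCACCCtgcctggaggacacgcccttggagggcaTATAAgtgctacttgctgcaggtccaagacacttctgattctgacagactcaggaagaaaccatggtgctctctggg

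Promoter windows were found for 6 of the 9 symbols, those shown and those of Hbb-bt and Hba-a2. CACCC was present in 6 of the 6 windows and in 57.5% of the 32851 mouse promoter windows of the same length. GATAA was present in 6 of 6, against 25.4% of all windows. CCAAT was present in 5 of 6 (37.4% of all), with no match in Hba-x, and TATAA in 5 of 6 (24.9% of all), with no match in Hbb-y. The CACCC match began 111 bases before the start of Hbb-y and 90 bases before that of Hbb-bs, and the CCAAT match began 83 and 76 bases before it. GGTCA was present in 3 of 6 windows (40.5% of all) and had 5 matches in Hbb-y, of which the one 86 bases before the start overlaps CCAAT. At least 5 matches to GGTCA were present in 0.0944% of all windows. The windows of Hba-a1 and Hba-a2 were identical over all 297 aligned bases, and those of Hbb-bs and Hbb-bt over 226 of 289. These matches describe letters only, and binding was not measured.

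The targeted gene was lower in KO arrays of both tissues. Arrays of 1 group correlated across probe sets at r = 0.993 to 0.997, probe sets not being independent replicates, and median intensities lay between 40.8 and 42.6. The brighter Col18a1 probe set read 8.17 and 8.06 (log2 intensity) in KO against 9.06 and 9.18 in WT fetal liver, and 5.63 and 5.99 in KO against 7.84 and 7.85 in WT bone marrow. The sources used here do not say whether it lies in the deleted part of Col18a1. Its KO minus WT difference was -1.0 in fetal liver (adjusted p = 0.0546, limma) and -2.03 in bone marrow (adjusted p = 0.00268, limma), so the former missed 0.05. The other Col18a1 probe set differed by -1.62 in fetal liver and -1.34 in bone marrow (adjusted p = 0.0034 and 0.0227, limma). Hepatocyte markers were higher in fetal liver for 10 of 10 measured genes in KO and in WT (limma, adjusted p under 0.05), and 11 of 11 neutrophil and 11 of 11 B-lineage markers were lower. The shares over all genes, by the brightest probe set of each, were 26.1% higher and 18.6% lower in KO, and 28.7% and 18.3% in WT. The fetal liver pools also differed by sex-linked expression. Xist, transcribed from the inactive X chromosome, read 4.97 and 4.77 in KO and 11.04 and 11.22 in WT fetal liver, while the Y-linked Eif2s3y read 9.38 and 9.42 in KO and 3.29 and 3.00 in WT.

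Levels are log2 of the deposited intensity, and differences are on the same scale, where 1 is a 2-fold change. A probe set was called where its p-value in limma, two-sided and adjusted over all 45101 probe sets by the method of Benjamini and Hochberg, was under 0.05. Probe sets bind with different strength, so levels are compared between groups and not between genes. In suspensions of whole tissue, a lower level from fewer cells of a type and from less RNA per cell cannot be told apart.

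The comparison of fetal liver with adult marrow asked how far the globin repertoire differed between the 2 tissues. Each of the 7 embryonic probe sets was higher in fetal liver in both genotypes, by between 4.84 and 10.03 in KO and between 4.87 and 9.48 in WT, whereas the brightest adult probe sets were at similar levels in every group. In KO, 10 of the 15 globin probe sets were called, 9 higher and 1 lower in fetal liver. Of all probe sets 39.7% were called in KO, 19.7% higher and 20% lower. In WT, 9 of 15 were called, 7 higher and 2 lower, against 42.4% of all probe sets, 21.5% higher and 20.9% lower. Xist was high in the WT fetal liver pools (11.04 and 11.22) and low in WT marrow of males (4.86 and 4.78). Tissue and this sex-linked difference cannot be told apart in the WT comparison.

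**Figure D1:**
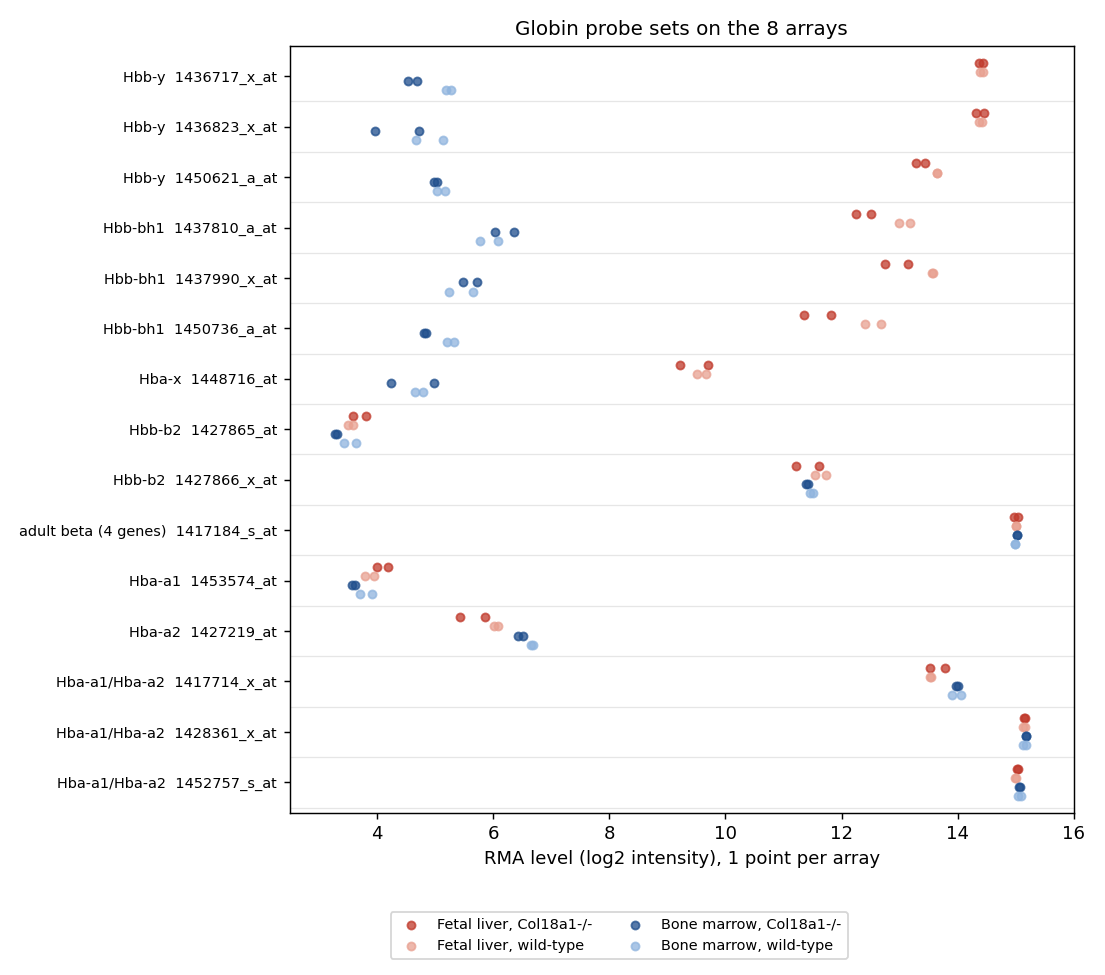
Log2 intensity (horizontal axis) of each of the 15 globin probe sets on each of the 8 arrays, 1 point per array, coloured by group. The 7 embryonic probe sets separate fetal liver from bone marrow, while the 3 brightest adult probe sets lie between 14.97 and 15.18 on every array.

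Hbb-y, the embryonic epsilon-like beta chain, was higher in fetal liver on each of its 3 probe sets. Folds of the embryonic genes start from readings that are dim in bone marrow. In fetal liver Hbb-y lay near the top of the scale, while Hba-x lay at least 5.46 below the array maximum. Fold sizes are therefore not compared between genes. Hbb-y probe set 1436717_x_at read 14.43 and 14.36 in KO fetal liver and 4.69 and 4.53 in KO bone marrow. In WT it read 14.39 and 14.43 in fetal liver and 5.19 and 5.28 in bone marrow. The tissues did not overlap, as for 37.7% of all probe sets higher in fetal liver in KO and 40.4% in WT, and the fetal liver arrays of both genotypes lay close together. The difference was 9.79 ± 0.11 (SE, 882-fold) in KO and 9.18 ± 0.11 (579-fold) in WT, with adjusted p = 1.85e-10 and 1.91e-10 (limma).

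The other 2 Hbb-y probe sets gave the same picture. Hbb-y probe set 1436823_x_at read 14.45 and 14.31 in KO and 14.36 and 14.41 in WT fetal liver, against 4.72 and 3.96 in KO and 4.67 and 5.14 in WT bone marrow. Its difference was 10.03 ± 0.23 (1049-fold) in KO and 9.48 ± 0.23 (714-fold) in WT. Hbb-y probe set 1450621_a_at read 13.44 and 13.28 in KO and 13.64 and 13.64 in WT fetal liver, against 5.04 and 4.98 in KO and 5.04 and 5.17 in WT bone marrow. The difference was 8.35 ± 0.11 (327-fold) in KO and 8.53 ± 0.11 (371-fold) in WT. The 3 probe sets gave folds of different size, and each placed all fetal liver arrays far above all bone marrow arrays.

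Hbb-bh1, the other embryonic beta-like chain and the earlier of the pair in primitive cells, was higher in fetal liver on each of its 3 probe sets as well. Its probe set 1437990_x_at read 12.74 and 13.15 in KO and 13.58 and 13.56 in WT fetal liver, against 5.48 and 5.73 in KO and 5.66 and 5.25 in WT bone marrow. The difference was 7.34 ± 0.18 (162-fold) in KO and 8.12 ± 0.18 (278-fold) in WT, with adjusted p = 6.27e-09 and 3.74e-09 (limma). The tissues did not overlap on this or on either of the other Hbb-bh1 probe sets.

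On 1437810_a_at, Hbb-bh1 read 12.24 and 12.51 in KO and 13.17 and 12.99 in WT fetal liver, against 6.03 and 6.36 in KO and 6.08 and 5.78 in WT bone marrow, a difference of 6.18 ± 0.16 (72.5-fold) in KO and 7.15 ± 0.16 (142-fold) in WT. On 1450736_a_at it read 11.35 and 11.81 in KO and 12.68 and 12.40 in WT fetal liver, against 4.81 and 4.85 in KO and 5.33 and 5.20 in WT bone marrow, a difference of 6.75 ± 0.16 (107-fold) in KO and 7.28 ± 0.16 (155-fold) in WT. All 3 Hbb-bh1 probe sets placed WT fetal liver highest, then KO fetal liver, then both bone marrow groups.

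Hba-x, the embryonic zeta-like alpha chain, is reported by a single probe set, 1448716_at. It read 9.70 and 9.22 in KO fetal liver and 4.25 and 4.99 in KO bone marrow, and 9.67 and 9.51 in WT fetal liver and 4.80 and 4.65 in WT bone marrow. The difference was 4.84 ± 0.24 (28.7-fold, adjusted p = 3.98e-07) in KO and 4.87 ± 0.24 (29.2-fold, adjusted p = 3.78e-07, limma) in WT. The 2 genotypes overlapped within each tissue.

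**Figure D2:**
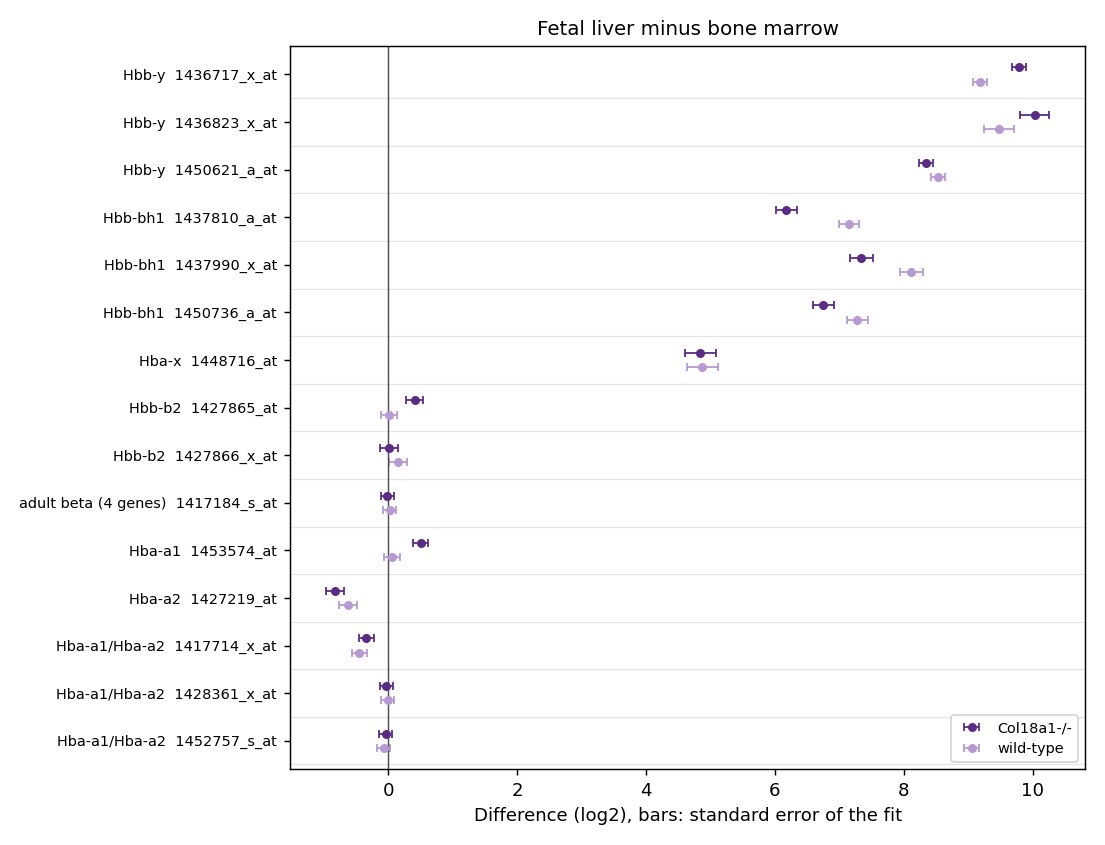
Fetal liver minus bone marrow difference (log2) of each globin probe set in KO and in WT, with standard errors from limma. The 7 embryonic probe sets lie between 4.84 and 10.03, and the 3 brightest adult probe sets lie between -0.07 and 0.02.

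Of the 8 adult probe sets, the 3 brightest were read at the top of the measurable range in both tissues. The shared adult beta probe set 1417184_s_at (Hbb-bt, Hbb-bs, Hbb-b2 and Hbb-b1) read 14.97 and 15.03 in KO and 15.01 and 15.00 in WT fetal liver, against 15.02 and 15.02 in KO and 14.99 and 14.99 in WT bone marrow. The adult alpha probe set 1428361_x_at (Hba-a2 and Hba-a1) read 15.16 and 15.14 in KO and 15.15 and 15.13 in WT fetal liver, against 15.17 and 15.18 in KO and 15.12 and 15.17 in WT bone marrow. These 2 probe sets and 1452757_s_at, a further probe set of Hba-a2 and Hba-a1 designed from the same source record as 1428361_x_at, held ranks 1 to 3 on every array and lay within 0.19 of the array maximum.

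No tissue difference was detected on these 3 probe sets, whose adjusted p was between 0.596 and 0.946 (limma). The difference on 1417184_s_at was -0.02 in KO (95% confidence interval -0.25 to 0.20) and 0.02 in WT (-0.21 to 0.24). Quantile normalization gives the highest values of all arrays nearly the same level, so a tissue difference among the brightest probe sets has little room to appear, and whether it hid one was not tested. The direction also depended on scaling. With each array centred on 21 erythroid markers, 1417184_s_at in WT was called 0.33 higher in fetal liver (adjusted p = 0.0297, limma) and 1428361_x_at in WT turned to 0.30 higher (adjusted p = 0.0378, limma). In KO the same centring gave 0.27 on both, which was not called (adjusted p = 0.0647 and 0.062, limma). The centring used the mean of the 21 markers, to which strong falls of single genes add. Their median tissue difference was only -0.09 in KO and -0.18 in WT, and Car1 and Aqp1 fell far more.

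A less bright adult alpha probe set, 1417714_x_at (Hba-a2 and Hba-a1), read 13.78 and 13.53 in KO and 13.52 and 13.54 in WT fetal liver, against 13.97 and 14.01 in KO and 13.90 and 14.06 in WT bone marrow. Every fetal liver array lay below every bone marrow array, as for 30.9% of all probe sets in KO and 31% in WT. The difference was -0.34 ± 0.12 in KO, which missed the threshold (adjusted p = 0.0539, limma), and -0.45 ± 0.12 in WT, which passed it (adjusted p = 0.0139, limma). The WT call was lost without WT fetal liver replicate 1 (adjusted p = 0.0521), without WT bone marrow replicate 2 (adjusted p = 0.111), and with centring on erythroid markers, which left -0.14 (adjusted p = 0.314, limma). The KO difference was called with the filter at 5 (adjusted p = 0.0323) or 6 (adjusted p = 0.0245), with trend and robust variance (adjusted p = 0.00423) and without KO fetal liver replicate 1 (-0.46, adjusted p = 0.0247, limma). It was -0.21 without KO fetal liver replicate 2 and -0.04 with erythroid centring.

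Hba-a2 alone is named by 1427219_at, which read 5.43 and 5.86 in KO and 6.08 and 6.02 in WT fetal liver, against 6.52 and 6.43 in KO and 6.66 and 6.68 in WT bone marrow. It fell by 0.83 ± 0.14 in KO (adjusted p = 0.00135, limma) and by 0.62 ± 0.14 in WT (adjusted p = 0.0067, limma) in fetal liver relative to bone marrow. The WT call did not hold with erythroid centring (-0.31, adjusted p = 0.0974, limma). Every fetal liver array lay below every bone marrow array on this probe set too.

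Hbb-b2, a beta gene of the diffuse haplotype that the C57BL/6 strains are known not to carry, is named by 2 probe sets made from the same source record. Probe set 1427866_x_at read between 11.22 and 11.73 in fetal liver and between 11.39 and 11.51 in bone marrow, with a difference of 0.01 in KO and 0.15 in WT that was not called (adjusted p = 0.962 and 0.428, limma). As the strain is known not to carry Hbb-b2, the gene behind this signal cannot be told from the symbol. Probe set 1427865_at read 3.82 and 3.59 in KO fetal liver and 3.28 and 3.32 in KO bone marrow, and 3.51 and 3.59 in WT fetal liver and 3.43 and 3.64 in WT bone marrow. The difference of 0.41 ± 0.13 in KO was called (adjusted p = 0.0284, limma), and that of 0.01 in WT was not (adjusted p = 0.945).

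Hba-a1 alone is named by 1453574_at, which read 4.00 and 4.19 in KO fetal liver and 3.62 and 3.58 in KO bone marrow, a difference of 0.50 ± 0.12 (adjusted p = 0.0108, limma). In WT it read 3.80 and 3.95 in fetal liver and 3.71 and 3.92 in bone marrow, a difference of 0.06 (adjusted p = 0.723). Both KO calls of these dim probe sets were lost when some single arrays were left out, 1427865_at without KO fetal liver replicate 1 (adjusted p = 0.142) or KO bone marrow replicate 1 (adjusted p = 0.129) or 2 (adjusted p = 0.09), and 1453574_at without KO fetal liver replicate 2 (adjusted p = 0.0566) or KO bone marrow replicate 2 (adjusted p = 0.0633, limma).

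The genes whose profile over the 8 arrays lay nearest to each globin were sought among 16355 named genes outside the family, by the root mean square distance between log2 profiles after subtracting each profile's mean. For Hbb-y the nearest were Serpina6 (corticosteroid-binding globulin) at 0.24, Rbp4 (retinol-binding protein) at 0.30 and Apoa2 (an apolipoprotein) at 0.37. For Hbb-bh1 they were Slc2a2 (a glucose transporter) at 0.22, Aass (an enzyme of lysine breakdown) at 0.24 and Rps6ka6 (a ribosomal S6 kinase) at 0.25. Rps6ka6 averaged 9.32 in KO and 10.04 in WT fetal liver. It was picked for its nearness on these same arrays, so its lower KO value is no separate support for that of Hbb-bh1. Genotype and the sex-linked difference between the fetal liver pools cannot be told apart in it either. For Hba-x the nearest included Cited1 (a transcriptional coregulator) at 0.21 and Robo1 (a guidance receptor) at 0.23. For the flat adult profiles, Hemgn and Prpf38a lay at 0.02 to 0.03 from both the alpha and the beta probe set, with Nr5a1 near the alpha and Rps24 near the beta one, and such short distances describe genes that hardly varied. These likenesses rest on 8 arrays that fall into 2 tissues.

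Loss of collagen XVIII was compared within each tissue, beginning with fetal liver, for any difference in globin expression. In fetal liver the 3 Hbb-bh1 probe sets were lower in KO with no overlap between genotypes, while Hba-x and 2 of the 3 Hbb-y probe sets overlapped. None of these differences passed the test: 0 of 15 globin probe sets were called, against 0.0554% of all. At an unadjusted p under 0.05, 5 globin probe sets were lower and 0 higher in KO, and 8.34% of all probe sets were lower at that level. Genotype and the sex-linked difference between the fetal liver pools cannot be told apart in any of these values.

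For Hbb-bh1, KO and WT fetal liver differed most on 1450736_a_at, by -0.96 ± 0.16 (1.94-fold lower in KO, 95% confidence interval -1.33 to -0.59, adjusted p = 0.0844, limma). The difference was -0.71 ± 0.16 on 1437810_a_at (1.63-fold lower, -1.08 to -0.34, adjusted p = 0.136, limma) and -0.63 ± 0.18 on 1437990_x_at (1.55-fold lower, adjusted p = 0.166, limma). The 3 probe sets report the same RNA pools and are not replicates of each other. Averaged over its probe sets, an alternative added after the data were seen, Hbb-bh1 differed by -0.77 ± 0.15 (adjusted p = 0.118, limma). Arrays did not overlap and were lower in KO for 22.7% of all probe sets. A fit with both a variance trend and robust moderation brought 1450736_a_at (adjusted p = 0.0183) and 1437810_a_at (adjusted p = 0.0429, limma) under the threshold.

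**Figure D3:**
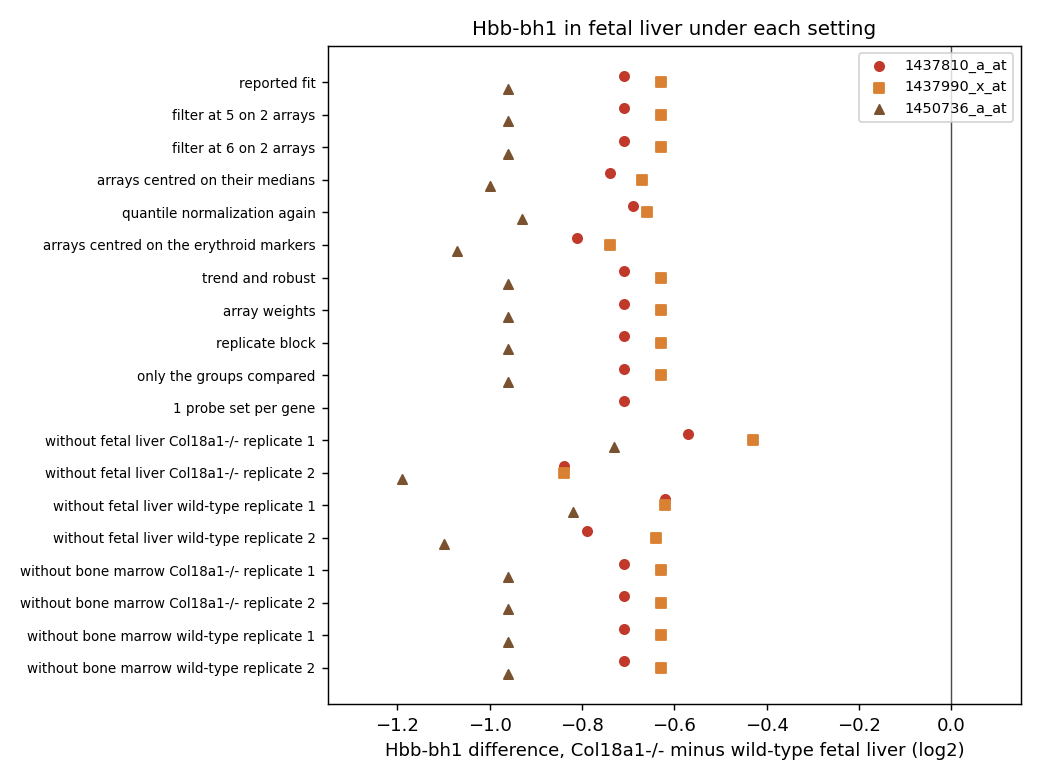
KO minus WT difference (log2) in fetal liver of the 3 Hbb-bh1 probe sets (1 symbol shape and colour each) under each processing setting and with each array left out. All values lie below 0, between -1.19 and -0.43.

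The erythroid markers of fetal liver are given beside the Hbb-bh1 values, which were not called in the main fit. The 21 measured erythroid markers (of 24 listed) had a mean level between 11.49 and 11.51 in KO and between 11.35 and 11.43 in WT fetal liver, summing to 241.3 to 241.6 in KO and 238.3 to 240.1 in WT. None of these markers was called in either direction, where 0.0554% of all probe sets were called. Of the 21, 14 had a positive KO minus WT difference, with a median of 0.09 against 0.00 for all probe sets. With arrays centred on these markers the Hbb-bh1 differences were between -1.07 and -0.74. The part of erythroid cell content in the Hbb-bh1 values was not tested. The 10 hepatocyte markers averaged 12.63 to 12.75 in KO and 12.57 to 12.68 in WT fetal liver, and none was called.

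Hbb-y in fetal liver differed between KO and WT by -0.02 on 1436717_x_at and -0.01 on 1436823_x_at (adjusted p = 0.962 and 0.993, limma), and by -0.28 ± 0.11 on the less bright 1450621_a_at, where the arrays did not overlap (adjusted p = 0.274, limma). Both _x_at probe sets of Hbb-y read between 14.31 and 14.45 in fetal liver, near the upper end of the scale. Hba-x differed by -0.13 ± 0.24 (adjusted p = 0.826, limma) with overlapping arrays. Of the adult probe sets 1427219_at (Hba-a2) differed by -0.40 ± 0.14 (adjusted p = 0.231, limma) and lay between -0.62 and -0.19 with 1 array left out, and the other 7, with differences between -0.23 and 0.22, did not reach an unadjusted p under 0.05.

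In bone marrow 0 of 15 globin probe sets were called between KO and WT, against 0.109% of all. At an unadjusted p under 0.05, 3 were lower and 0 higher in KO, and 2.42% of all probe sets were lower at that level. Hbb-y on 1436717_x_at, at 4.69 and 4.53 in KO and 5.19 and 5.28 in WT, differed by -0.62 ± 0.11 (1.54-fold lower, 95% confidence interval -0.87 to -0.37, adjusted p = 0.137, limma). This probe set was dim in marrow, its mean intensities of 24.4 in KO and 37.6 in WT lying below the array medians (40.8 to 42.6). The arrays did not overlap, as for 17.6% of all probe sets lower in KO. A separate fit to 1 probe set per gene, at 5 or more on at least 2 arrays, brought it under the threshold (adjusted p = 0.0429, limma).

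The other Hbb-y probe sets in bone marrow differed by -0.56 ± 0.23 with overlap (1436823_x_at, adjusted p = 1, limma) and by -0.10 ± 0.11 (1450621_a_at). Without KO bone marrow replicate 1 the value of 1436823_x_at was -0.94, without KO bone marrow replicate 2 it was -0.18, without WT replicate 2 -0.33, and no setting called it. Of Hbb-bh1, 1450736_a_at was lower in KO bone marrow without overlap (-0.43 ± 0.16, adjusted p = 1, limma), while 1437810_a_at and 1437990_x_at had differences of 0.26 and 0.15. Hba-x differed by -0.11 ± 0.24. In the same arrays 8 of 10 measured megakaryocyte markers were lower in KO (limma, adjusted p under 0.05), against 0.0976% of all probe sets. Their list summed to 87.5 to 87.9 in KO and 97.8 to 101.3 in WT. A positive difference was present for 19 of 21 erythroid markers with 0 called, and their median was 0.1 against 0.01 for all probe sets. The part of either marker list in the Hbb-y value was not tested.

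**Figure D4:**
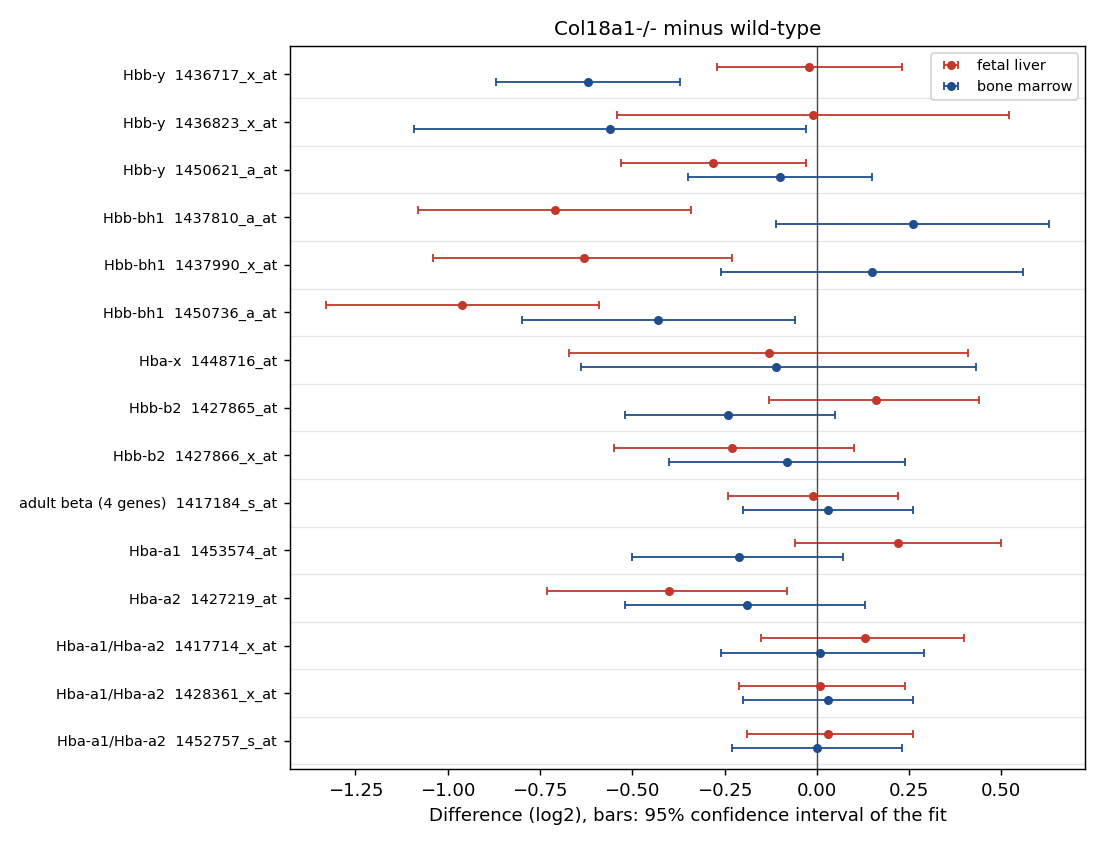
KO minus WT difference (log2) of each globin probe set in fetal liver and in bone marrow, with 95% confidence intervals from limma. The intervals of the 3 Hbb-bh1 probe sets in fetal liver and of 1436717_x_at (Hbb-y) in bone marrow are among those that lie below 0, and none of the 15 probe sets passed the adjusted threshold in either tissue.

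A tissue dependence of the genotype effect was tested by the interaction, the KO minus WT difference in fetal liver minus that in bone marrow. The interaction contains the fetal liver genotype difference, so it cannot be told apart from the sex-linked difference between those pools. The interaction was called for 0 of 15 globin probe sets, against 0.0288% of all, and 5 reached an unadjusted p under 0.05, against 10.7% of all. Hbb-bh1 on 1437810_a_at had an interaction of -0.97 ± 0.23 (adjusted p = 0.256, limma). On the other Hbb-bh1 probe sets it was -0.78 (adjusted p = 0.363) and -0.53 (adjusted p = 0.46, limma). Hbb-y on 1436717_x_at had an interaction of 0.61 ± 0.16 (adjusted p = 0.273, limma), where the other Hbb-y probe sets gave 0.55 and -0.18.

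Genes known to control the embryonic to adult switch were measured for 48 of the 49 listed. In KO, 19 were higher and 15 lower in fetal liver than in bone marrow, with a median of 0.12 against 0.05 for all probe sets, and in WT 13 were higher and 17 lower, with a median of -0.01 against 0.07. Each gene is given by its brightest probe set. Over the 18194 genes so represented, 26.1% were higher and 18.6% lower in KO, and 28.7% were higher and 18.3% lower in WT. A separate fit took the brightest probe set of each gene, or of genes named together, at 5 or more on at least 2 arrays. Of these 13557 probe sets, 8626 were called in KO and 8909 in WT, so a large share of called genes was general. The largest changes by moderated t were the same 6 genes in both genotypes.

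Hmga2, an architectural chromatin protein of fetal stem cells, averaged 8.44 in KO and 8.75 in WT fetal liver, and 5.54 in KO and 5.66 in WT bone marrow, a difference of 2.91 ± 0.13 in KO and 3.08 ± 0.13 in WT (adjusted p = 2.4e-07 and 1.66e-07, limma). Igf2bp3, a fetal RNA-binding protein and target of the let-7 pathway, rose by 2.83 ± 0.11 in KO and 2.35 ± 0.11 in WT fetal liver. Hic2, a repressor of Bcl11a in human erythroid cells, rose by 2.37 ± 0.13 in KO and 2.47 ± 0.13 in WT. Nr2f2, an orphan nuclear receptor that acts on the embryonic and fetal globin promoters, rose by 3.14 ± 0.26 in KO and 2.97 ± 0.26 in WT. These 4 genes were higher in fetal liver in both genotypes.

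The other 2 were lower there. Klf2, a factor needed for embryonic globin expression in mouse primitive cells, fell by 3.32 ± 0.14 in KO and fell by 3.23 ± 0.14 in WT fetal liver. Myb, a factor of definitive progenitors linked to fetal globin levels in human, fell by 1.77 ± 0.10 in KO and fell by 1.85 ± 0.10 in WT. The embryonic globin repressor Bcl11a and its partner Sox6, chosen after their values were seen, were lower as well. Other repressor components of the list, also chosen after their values were seen, went both ways. Bcl11a averaged 9.85 in KO and 9.50 in WT fetal liver, against 10.27 in KO and 10.39 in WT bone marrow (-0.42 ± 0.10 in KO and -0.89 ± 0.10 in WT, adjusted p = 0.00796 and 7.65e-05, limma). Sox6 differed by -0.55 ± 0.10 in KO and -1.09 ± 0.10 in WT (adjusted p = 0.00236 and 2.66e-05, limma). Mta2, a subunit of the NuRD repressor complex, rose by 0.88 ± 0.11 in KO and 1.13 ± 0.11 in WT, and the demethylase gene Kdm1a by 0.63 ± 0.11 in each. The NuRD genes Gatad2a, Hdac2 and Mbd3 were called higher in both genotypes, by 0.39 to 0.74 in KO and 0.48 to 0.62 in WT. The NuRD gene Mbd2 went the other way and was called lower in both (-0.64 in KO and -0.68 in WT). Chd4 and Gatad2b, of the same complex, were called lower in WT (-1.55 and -0.49) and were not called in KO (-0.39 and 0.1). The corepressor gene Rcor1 was called lower in both (-0.46 in KO and -0.67 in WT). Zbtb7a, another globin repressor, was called in KO (0.59 ± 0.11) and not in WT (0.19 ± 0.11, adjusted p = 0.217, limma). Of the nuclear receptors named with the GGTCA site, Nr2c2 was called lower in both (-0.7 in KO and -1.03 in WT). Nr2c1 was not called in either (0.37 in KO and 0.35 in WT). Many of these genes are also used by other cells of the 2 tissues, so their levels are those of the whole suspension. None of the 48 was called between KO and WT in either tissue.

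**Figure D5:**
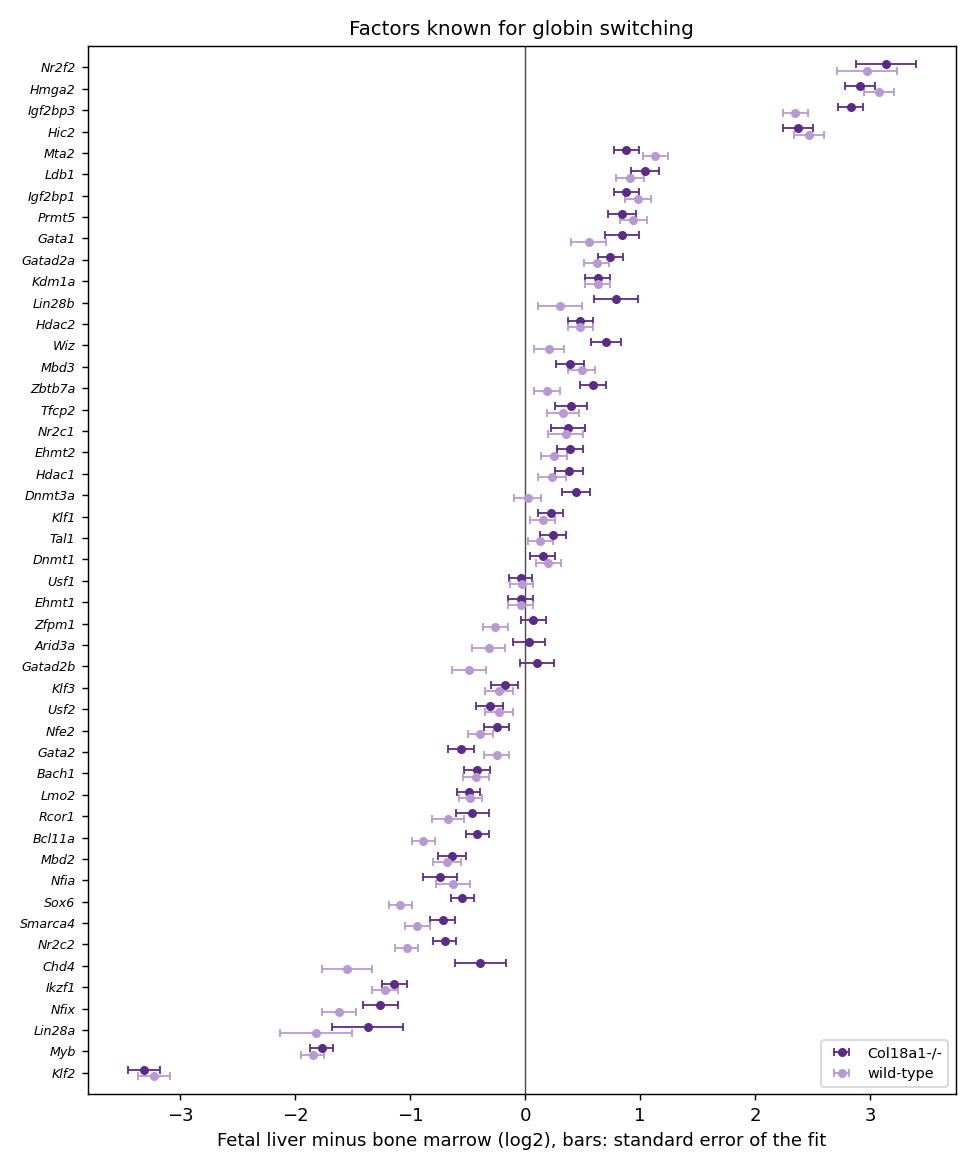
Fetal liver minus bone marrow difference (log2) of the measured globin switching factors in KO and in WT, with standard errors from limma. Hmga2, Igf2bp3, Hic2 and Nr2f2 lie between 2.35 and 3.14, and Klf2, Myb, Sox6 and Bcl11a lie below 0.

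Of the genes for hemoglobin assembly and clearance, 14 of 15 were measured. In KO 4 were higher and 5 lower in fetal liver, and in WT 5 were higher and 5 lower. Over all genes by their brightest probe set, 26.1% were higher and 18.6% lower in KO, and 28.7% and 18.3% in WT. Hpx, the plasma heme scavenger hemopexin, rose by 6.51 ± 0.14 in KO and 7.55 ± 0.14 in WT fetal liver. Cd163, the macrophage receptor for the hemoglobin-haptoglobin complex, fell by 4.49 ± 0.13 in KO and fell by 3.75 ± 0.13 in WT, and Hp, which encodes haptoglobin, fell by 3.82 ± 0.13 in KO and fell by 3.80 ± 0.13 in WT. Bpgm, whose product makes the compound that lowers the oxygen affinity of adult hemoglobin, fell by 2.55 ± 0.12 in KO and fell by 2.28 ± 0.12 in WT. Cyb5r3, the reductase that keeps heme iron ferrous, rose by 1.83 ± 0.11 in KO and 1.58 ± 0.11 in WT. Hmox1, the heme oxygenase of heme breakdown, rose by 1.77 ± 0.17 in KO and 1.20 ± 0.17 in WT. Lrp1, the receptor for the heme-hemopexin complex, rose by 0.94 ± 0.13 in KO and 1.36 ± 0.13 in WT. None of the 14 was called between KO and WT in either tissue.

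The genes beside the clusters were set against the tissue difference of the globins. Of 10 measured genes flanking the Hbb cluster on chromosome 7, mostly odorant receptors, 1 was higher in KO fetal liver than in KO bone marrow, Olfr64 (0.54 ± 0.15, adjusted p = 0.0172, limma), and 0 were called in WT. Their mean level lay between 3.86 and 4.08 on all arrays. Of 10 flanking the Hba cluster on chromosome 11, 4 were higher and 1 lower in each genotype. The shares over all genes were 26.1% higher and 18.6% lower in KO, and 28.7% and 18.3% in WT. Rhbdf1, an inactive rhomboid protein, rose by 1.28 ± 0.14 in KO and 1.16 ± 0.14 in WT fetal liver. Ubtd2, a ubiquitin-domain protein, rose by 1.20 ± 0.13 in KO and 1.26 ± 0.13 in WT. Mpg, a DNA glycosylase gene near the alpha enhancers, rose by 0.36 ± 0.11 in KO and 0.41 ± 0.11 in WT. Stk10, a kinase of lymphoid cells, fell by 1.39 ± 0.12 in KO and fell by 1.42 ± 0.12 in WT. Of the 4 other globin superfamily genes measured (Mb, Cygb, Ngb and Adgb, of 6 listed), only Adgb was called, in KO (0.38 ± 0.12, adjusted p = 0.0264, limma).

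The erythroid markers did not move 1 way between the tissues. In KO 5 were higher and 6 lower in fetal liver, and in WT 4 were higher and 7 lower, with medians of -0.09 in KO and -0.18 in WT. Over all genes, 26.1% were higher and 18.6% lower in KO, and 28.7% and 18.3% in WT. Car1, the carbonic anhydrase of red cells, fell by 3.65 in KO and fell by 3.53 in WT fetal liver, and Aqp1, a water channel, fell by 2.31 in KO and fell by 2.43 in WT. Icam4, a red cell adhesion protein, rose by 0.72 in KO and 0.80 in WT. The list mean was 11.49 to 11.51 in KO and 11.35 to 11.43 in WT fetal liver, against 11.78 to 11.80 in KO and 11.66 to 11.74 in WT bone marrow. The embryonic globin differences of 4.84 to 10.03 in KO and 4.87 to 9.48 in WT were called under every setting tried, centring on these markers included.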

How the data were processed

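Total RNA was hybridised to Affymetrix mouse arrays, per the labels. Deposited values are 1 linear intensity per probe set and array. The authors made it with RMA, per the submitters' processing notes, of a version not given in the sources used. RMA subtracts background, equalises the array distributions and summarises probes, which compresses differences of dim probe sets and of those at the top of the scale. Deposited intensities were turned to log2 here. Detection calls were not used, so low levels stand as measured, and the number of arrays limits the precision.

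Groups came from the sample titles. Symbols came from the platform annotation, in which 34958 probe sets name 1 gene, 932 several and 9211 none. The 9 globin symbols were found in the RefSeq gene table. In R 4.3.3, limma 3.58.1 fitted 1 mean per group to the 8 arrays over 45101 unfiltered probe sets (4 residual and 5.01 prior degrees of freedom), with Benjamini-Hochberg adjustment over all of them, two-sided, at 0.05, for 5 contrasts. The fit was tested on simulated data. Lists are described by the brightest single-gene probe set of each gene, as counts and medians, and nothing was concluded from them as sets. The genes named were all members, Col18a1, Xist and Eif2s3y, up to 6 called members of a list per contrast by moderated t, and the 3 nearest profiles per globin, of which 1 for Hba-x is not reported here. Bcl11a, Sox6 and the other genes given beside them, Nr2c1 and Nr2c2 included, were named after their values were seen, and fewer list genes are named than the rule allows. Alternatives covered filters, normalization, centring, probe set choice, the variance model, weighted arrays, blocking by replicate number, fits to only the groups compared, the threshold and leaving out single arrays. The members and lists were chosen with earlier results of these data known. Listed genes with no single-gene probe set here were not analysed here.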

Additional observations from a re-analysis of the deposited data

Results flagged for a closer look

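The direction of the KO minus WT difference was opposite in the 2 tissues for 2 dim adult probe sets, the KO and WT arrays not overlapping in either tissue (for 1427865_at in fetal liver the nearest KO and WT arrays both read 3.59 at this rounding). Of all probe sets, 20.4% were higher in KO fetal liver and 17.6% lower in KO bone marrow without overlap. Both probe sets lay low on every array, between percentiles 14.3 and 30. For 1427865_at (Hbb-b2) the difference was 0.16 in fetal liver and -0.24 in bone marrow, an interaction of 0.39 that missed the threshold (adjusted p = 0.47, limma). For 1453574_at (Hba-a1) it was 0.22 in fetal liver and -0.21 in bone marrow, an interaction of 0.43 that also missed it (adjusted p = 0.436, limma). Groups of 2 arrays were not examined for single arrays far from the rest.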

How the results depend on the processing

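The 7 embryonic probe sets were called higher in fetal liver in both genotypes under every setting in which they were tested. The count of called globin probe sets, 10 in KO and 9 in WT, was 4 in each with 1 probe set per gene, where fewer were tested, and 5 in KO and 4 in WT with the mean of probe sets per gene, which was added after the data were seen. It was 8 to 10 in KO and 8 to 9 in WT with 1 array left out. Centring on erythroid markers moved the median of all probe sets to 0.34 in KO and 0.38 in WT, against 0.05 and 0.07, and the calls to 21430 higher and 6080 lower in KO and 23824 higher and 6530 lower in WT, against 8871 and 9028 in KO and 9715 and 9424 in WT. With it the globin calls were 9 higher and 1 lower in KO, and 12 higher and 0 lower in WT, where 5 adult probe sets were called higher. These were 1428361_x_at, turned to 0.30, 1417184_s_at at 0.33, 1427866_x_at at 0.46, 1427865_at at 0.32 and 1453574_at at 0.37 (adjusted p = 0.0378, 0.0297, 0.0189, 0.0407 and 0.023, limma), and the lower WT calls of 1417714_x_at and 1427219_at were lost. Between KO and WT bone marrow, 1 globin probe set was called with trend and robust variance, with array weights and with 1 probe set per gene, in each case Hbb-y 1436717_x_at at -0.62 (adjusted p = 0.0108, 0.0363 and 0.0429, limma). In fetal liver, the filter at 6 called 1 (1450736_a_at, adjusted p = 0.0494) and the trend and robust variance called 2. The 3 Hbb-bh1 differences in fetal liver kept their sign in every setting, from -1.19 to -0.43, and 1436717_x_at in bone marrow lay between -0.71 and -0.54. Over all probe sets, the KO and WT bone marrow calls numbered 49, against 121 with trend and robust variance, 125 with array weights, 4 with only the groups compared and 2 without either KO fetal liver array. In fetal liver they numbered 25, against 370 with trend and robust variance, 161 with the filter at 6, 9 with only the groups compared and 161 without KO fetal liver replicate 1. The interaction calls numbered 13, against 99 with trend and robust variance. The cause was not tested. Same-numbered replicates did not deviate together (r from -0.089 to 0.009), and the replicate block gave 10 and 9 tissue calls of globin probe sets and 0 between genotypes. The 2 arrays per group, and the compression of dim and very bright signals, limit the size of globin difference that could be called. The interaction could not be fitted with only the groups compared.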

Other observations

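Marker lists of other blood cells add to the description of the 2 tissues. Over all genes by their brightest probe set, 26.1% were called higher and 18.6% lower in KO fetal liver, and 28.7% and 18.3% in WT. Of 12 measured macrophage markers, 4 were higher and 3 lower in fetal liver than in bone marrow in KO, and 5 were higher and 3 lower in WT (limma, adjusted p under 0.05). Their mean level was 8.65 to 8.66 in KO and 8.60 to 8.69 in WT fetal liver, against 8.41 to 8.48 in KO and 8.20 to 8.29 in WT bone marrow, and none was called between KO and WT in either tissue. Of 10 megakaryocyte markers, 3 were higher and 1 lower in fetal liver than in bone marrow in KO, whereas in WT 0 were higher and 7 lower. The interaction was called for 0 of the 10, although its sign was positive for all 10, with a median of 1.23 against -0.01 for all probe sets.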
